A study of Mus musculus with 8 samples.

Results

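The genes of glycolysis and the pentose phosphate pathway were followed in mouse embryonic stem (ES) cells and in the feeder fibroblasts beneath them, with and without CX-5461, an inhibitor of RNA polymerase I, the enzyme that transcribes ribosomal RNA. The set held 32 genes, chosen by name as transporters, enzymes and regulators of the pathway, and all 32 of 32 were found among the 54146 gene identifiers of the count tables. ICM-derived ES cells (the E14 line in the study's methods) had been grown for 2 days on gelatin-coated plates with MEF feeder cells, which are mouse embryonic fibroblasts, in medium with LIF and 2 kinase inhibitors (LIF/2i). One culture was untreated and is called control here, and the other was treated with CX-5461 at a dose and for a time not given in the labels for these samples. Single cells were profiled with the 10x Genomics 3′ kit, version 2, so that each unique molecular identifier (UMI) stood for about 1 captured transcript end, whatever the transcript's length.

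Glucose enters the cell through facilitative transporters and is trapped by hexokinase. Upper glycolysis spends ATP to split the sugar, lower glycolysis returns ATP and ends in pyruvate, and pyruvate is either burned in mitochondria or reduced to lactate and exported with a proton. The pentose phosphate pathway branches off at glucose 6-phosphate, making NADPH in its oxidative arm and ribose for nucleotides, and hands carbon back to glycolysis through transaldolase and transketolase. Pluripotent cells and proliferating fibroblasts are both known for a high glycolytic rate. Several steps have paralogous enzymes with different kinetics, and many of these genes are known targets of the hypoxia-inducible factors (HIF) and of MYC.

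The labels list 4 samples per condition, but each table pooled a condition with no map from cells to samples, so each condition was 1 library and no test between conditions could be made. Every interval below is an exact 95% interval of counting error alone, and none covers variation between cultures. The control table held 3838 barcodes and 49610287 UMIs and that of CX-5461 held 4922 barcodes and 69841836 UMIs. Barcodes were renumbered in both tables, so the number shared between libraries was not counted. Cells were compared from 5000 UMIs upward and up to 0.1 of UMIs on mitochondrial (mt-) genes, which left 2331 control and 3929 CX-5461 cells with ES markers (ES-like) and 192 and 160 cells with fibroblast markers (fibroblast-like, the feeders). Those ES-like cells fell in different clusters in each library, clusters 0 and 3 in the control and clusters 6, 7 and 8 after CX-5461, and 5 control cells with more macrophage than fibroblast marker UMIs were set aside. The median share of UMIs on mt- genes moved with the library in both classes, from 1.88% in control to 4.00% in CX-5461 ES-like cells and from 1.91% to 3.08% in fibroblast-like cells, and its part in the results was not tested.

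Both classes carried the markers they were named for. The 12 ES markers summed to 8053 and 8576 of every 1000000 UMIs in control and CX-5461 ES-like cells, and the 18 fibroblast markers to 7567 and 8300 in the fibroblast-like cells. Each class also held some RNA of the other. The fibroblast markers stood in ES-like cells at 1.27% of their fibroblast-like level in the control and 1.80% after CX-5461, and the ES markers stood in fibroblast-like cells at 5.18% and 3.04% of their ES-like level.

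Levels are given as UMIs of a gene scaled to 1000000 UMIs of the class (CPM). In such data fewer cells expressing a gene and less RNA per cell both lower this level. The change of a gene is given as a log2 ratio of these levels, CX-5461 over control. It is also given as the level-adjusted log2 ratio, from which the median log2 ratio of the 500 genes nearest in level was subtracted, because the median gene had a log2 ratio of 0.36 in ES-like and 0.16 in fibroblast-like cells. A gene was called higher or lower when this adjusted ratio passed 1.5-fold, and it was adjusted only with at least 200 UMIs over both libraries in ES-like cells or 100 in fibroblast-like cells.

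In ES-like cells 30 of the 32 genes passed the minimum, and Eno2 and Pfkfb3 did not. CX-5461 cells were higher by 1.5-fold for 6 of the 30, Pfkl, Pfkm, Eno1, Ldhb, Slc16a3 and Taldo1, against 20.0% of all 11568 genes tested. They were lower for another 6, Hk2, Pfkp, Eno3, Pkm, Pdk1 and Pgd, against 16.4% of all genes. These shares, 20.0% in each direction, lay near those of all genes and are no result about the set. The median adjusted log2 ratio was 0.06 for the 30 genes and 0.01 for all genes. The counts depended on the reference: 11 genes were higher and 3 lower by library totals with no level adjustment (36.2% and 7.46% of all genes), and 4 were higher and 8 lower with TMM factors (20.01% and 18.6% of all genes).

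In fibroblast-like cells 24 of the 32 genes passed the minimum. CX-5461 cells were higher by 1.5-fold for 8 of the 24, Slc2a1, Gpi1, Pfkl, Tpi1, Eno1, Ldhb, Slc16a1 and Slc16a3, which is 33.3% against 14.0% of all 6021 genes tested. They were lower for 2, Slc2a3 and Hk2, which is 8.33% against 15.3% of all genes. Of the 8 higher genes, Eno1 did not pass 1.5-fold when counted with its copies, and Gpi1 and Tpi1 fell inside it under some alternatives, as given below. The median adjusted log2 ratio was 0.48 for the 24 genes and -0.01 for all genes. By library totals 13 were higher and 1 lower, against 21.4% and 10.7% of all genes. All genes that passed the minimum in both classes are compared in the plot of level-adjusted ratios.

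**Figure D1:**
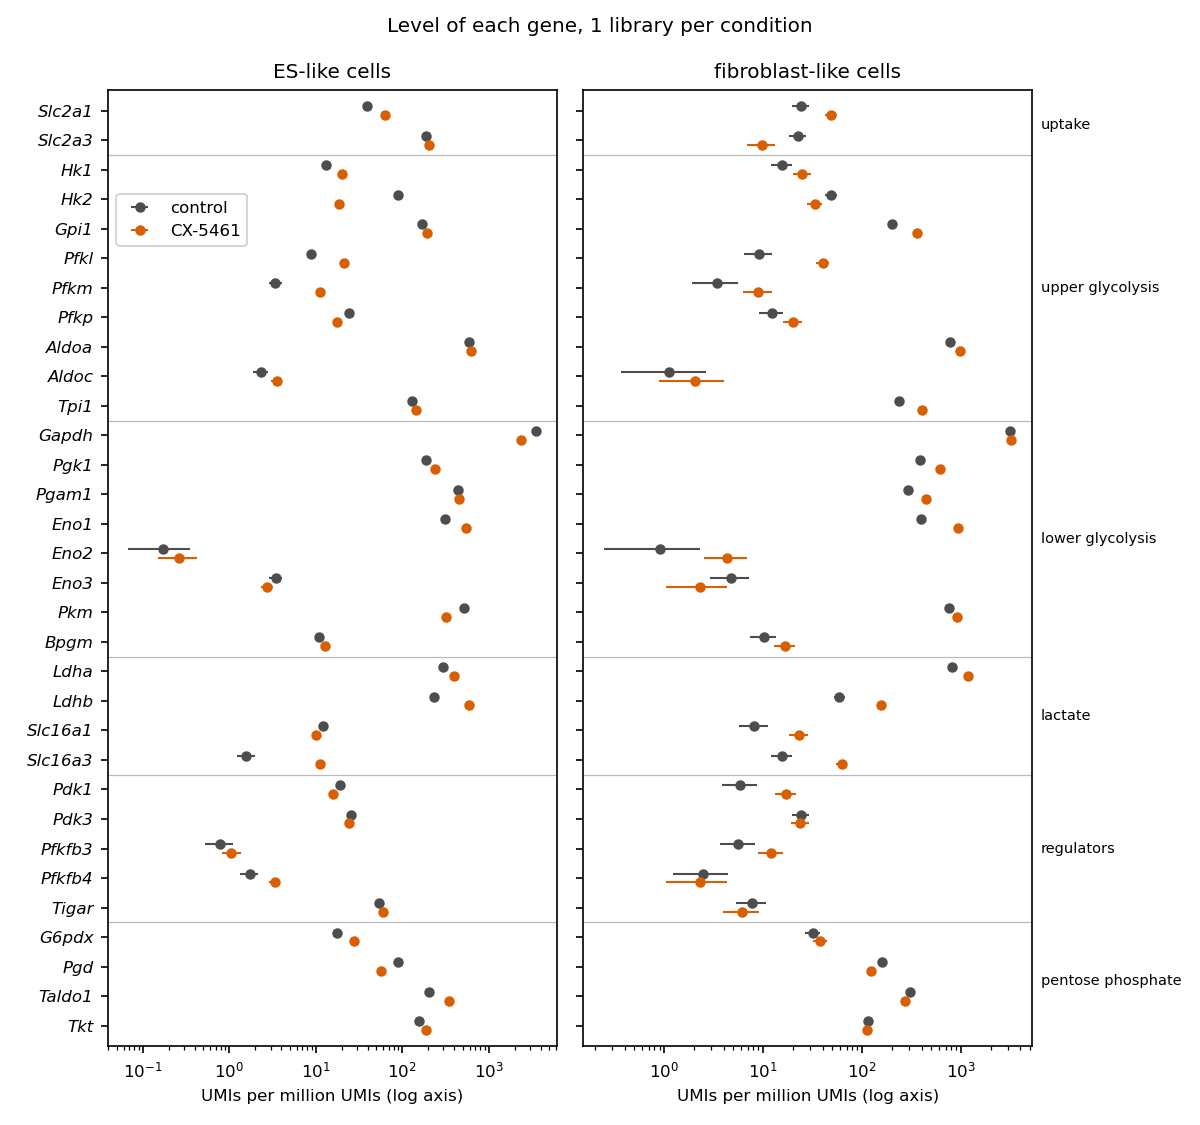
Level of each of the 32 genes in CPM (log axis) in ES-like cells (left) and fibroblast-like cells (right) of the control (grey) and CX-5461 (orange) library, with exact 95% Poisson intervals. Gapdh was the most abundant of the 32 in every class and library, Hk2 moved from 90.5 to 18.6 CPM in ES-like cells, and Slc16a3 from 1.58 to 11.3 there and from 15.6 to 62.3 in fibroblast-like cells.

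**Figure D2:**
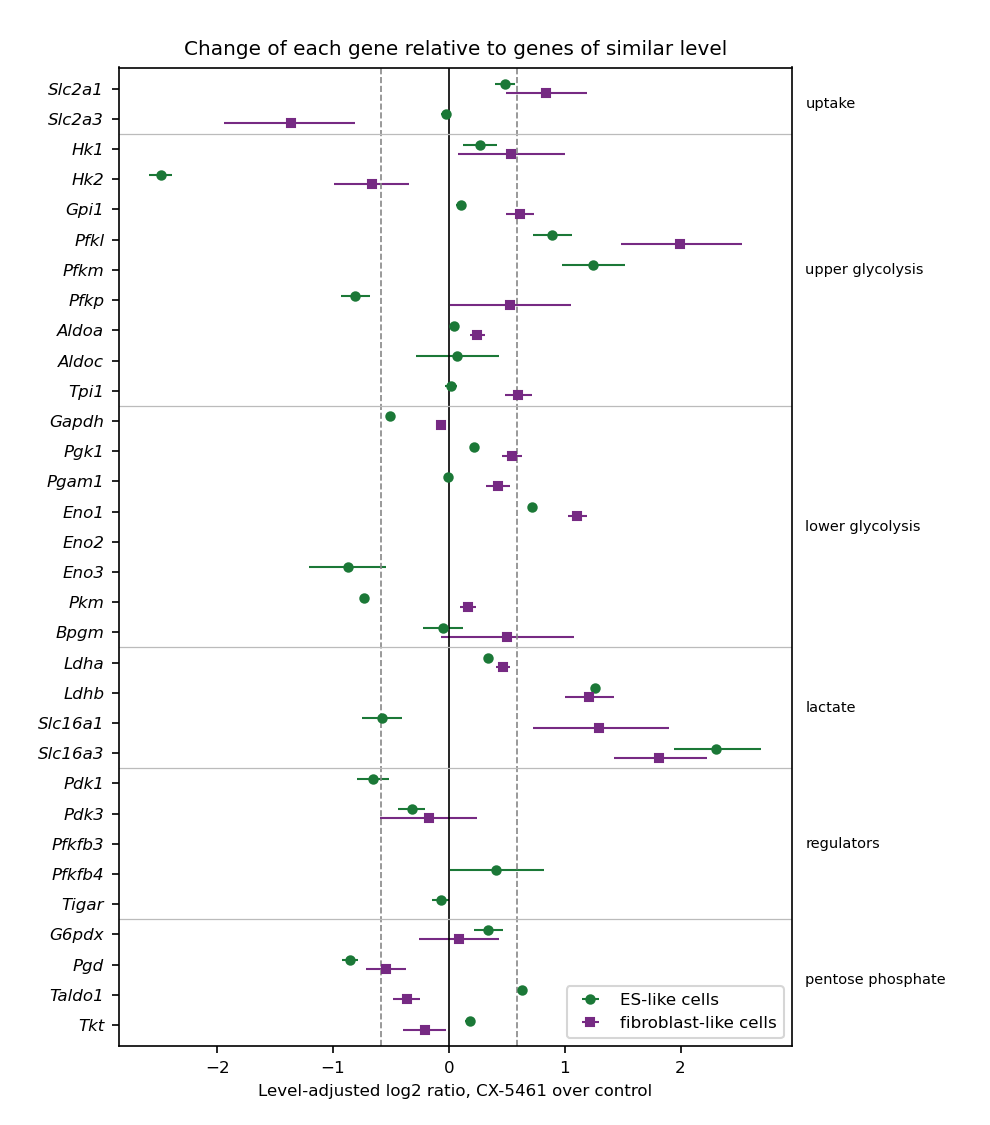
Level-adjusted log2 ratio, CX-5461 over control, of each gene that passed the minimum in ES-like (green circles, 30 genes) and fibroblast-like cells (purple squares, 24 genes), with 95% counting intervals. Dashed lines mark 1.5-fold in either direction. The green points scatter on both sides of 0 and most purple points lie to its right.

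The promoters of 4 genes are shown because the results turn on them. Among the 30 genes adjusted in ES-like cells Hk2 had the largest fall and Slc16a3 the largest rise, and Ldha and Ldhb encode the paired subunits of lactate dehydrogenase. Each sequence runs from 250 bases before to 50 bases after a RefSeq start site (GRCm38.p6), 5′ to 3′ along the gene. Capitals mark ACGTG or GCGTG on either strand, the core of the site that HIF binds, which on the opposite strand reads CACGT or CACGC.
Hk2, chr6:82774405-82774704, minus strand: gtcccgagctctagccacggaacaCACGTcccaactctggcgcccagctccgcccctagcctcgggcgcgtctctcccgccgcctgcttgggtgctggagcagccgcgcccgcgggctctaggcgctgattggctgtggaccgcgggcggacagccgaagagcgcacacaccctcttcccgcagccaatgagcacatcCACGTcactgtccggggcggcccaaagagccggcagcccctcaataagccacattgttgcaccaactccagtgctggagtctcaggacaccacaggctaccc
Slc16a3, chr11:120948817-120949116, plus strand: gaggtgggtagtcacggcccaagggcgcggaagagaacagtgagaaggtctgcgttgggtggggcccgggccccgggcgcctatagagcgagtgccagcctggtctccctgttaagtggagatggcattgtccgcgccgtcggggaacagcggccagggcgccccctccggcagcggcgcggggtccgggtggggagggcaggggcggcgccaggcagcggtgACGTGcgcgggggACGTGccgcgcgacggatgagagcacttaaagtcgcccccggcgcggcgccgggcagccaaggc
Ldha, chr7:46845554-46845853, plus strand: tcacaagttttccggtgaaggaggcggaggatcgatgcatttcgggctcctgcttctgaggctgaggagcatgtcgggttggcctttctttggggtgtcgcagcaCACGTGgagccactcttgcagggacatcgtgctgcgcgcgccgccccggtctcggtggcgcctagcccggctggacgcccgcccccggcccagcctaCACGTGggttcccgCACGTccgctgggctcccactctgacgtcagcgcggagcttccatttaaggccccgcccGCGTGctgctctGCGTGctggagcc
Ldhb, chr6:142507908-142508207, minus strand: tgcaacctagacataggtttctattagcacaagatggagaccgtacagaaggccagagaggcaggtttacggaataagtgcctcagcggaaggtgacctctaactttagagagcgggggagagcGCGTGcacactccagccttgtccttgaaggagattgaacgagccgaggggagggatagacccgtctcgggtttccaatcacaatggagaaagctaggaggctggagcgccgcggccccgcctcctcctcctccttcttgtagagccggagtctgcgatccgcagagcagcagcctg

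The Hk2 gene spans chr6:82725025-82774454 (GRCm38, GENCODE), Slc16a3 chr11:120948480-120960868, Ldha chr7:46841475-46855627 and Ldhb chr6:142490249-142507957. The Hk2 and Slc16a3 promoters each held ACGTG 2 times and GCGTG not at all. The Ldha promoter shown, 1 of 2 in RefSeq, held ACGTG 5 times over both strands and GCGTG 2 times. It held CACGTG, the E-box that MYC and related factors bind, 2 times. Each CACGTG reads ACGTG on both strands and so counted 2 times among the 5. The other Ldha promoter held GCGTG 2 times and ACGTG not at all. The Ldhb promoter held GCGTG 1 time and ACGTG not at all. RefSeq promoters were matched for 31 of the 32 genes (not for Slc2a3), and 26 of the 31 (83.9%) held ACGTG or GCGTG in at least 1 promoter, against 46.7% of the 27025 genes with one. A gene with more promoters has more places for a match. Counted per promoter, the shares were 75.6% of 45 in the set and 43.8% of all 32851. The promoters of the set also had more G and C than others, with a median of 60.7% against 52.7%. Gpi1, Tpi1, Eno2, Bpgm and Tigar held neither motif. CACGTG was found in 12.9% of the 31 genes and 8.09% of all genes. These are matches of letters, not sites shown to be bound.

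The glucose transporters differed between the libraries in another way in each cell class. Slc2a1 encodes GLUT1, the widespread transporter, and Slc2a3 encodes GLUT3, the high-affinity one. In ES-like cells Slc2a1 stood at 39.6 and 63.2 CPM in control and CX-5461 cells, from 1634 and 3823 UMIs, and its level-adjusted log2 ratio was 0.49 (0.40 to 0.57), or 0.65 over all ES-like cells, from 500 UMIs and up to 0.2 on mt- genes. Slc2a3 stood at 188 and 201 CPM there and had an adjusted log2 ratio of -0.02 (-0.07 to 0.02). In fibroblast-like cells Slc2a1 was higher, at 24.0 and 48.8 CPM, a 2.04-fold ratio (1.60 to 2.61). Slc2a3 was lower in those cells, at 22.4 and 9.71 CPM from 99 and 38 UMIs, with an adjusted log2 ratio of -1.36 (-1.94 to -0.81). Slc2a1 thus made up 51.7% (44.6 to 58.7) of the UMIs of the pair in control feeders and 83.4% (77.9 to 88.0) in CX-5461 feeders.

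The level of ES cell RNA in feeders was also lower in the CX-5461 library. Slc2a3 in fibroblast-like cells stood at 11.9% of its ES-like level in the control and 4.82% after CX-5461, above the 5.18% and 3.04% of the ES markers in each library. In the 173 control and 154 CX-5461 feeders with at most 2 UMIs of the ES gene Pou5f1 it stood at 15.9 and 7.25 CPM. The part of ES cell RNA in this difference was not tested.

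The hexokinases, which trap glucose as its 6-phosphate, stood far apart in control ES-like cells and close together in CX-5461 ones. Hk2, the inducible hexokinase of growing cells, stood at 90.5 CPM in the control and 18.6 after CX-5461, from 3733 and 1128 UMIs. That is 4.85-fold lower (4.54 to 5.19), with an adjusted log2 ratio of -2.49 (-2.58 to -2.39), and 99.6% of the 500 genes of similar level had a higher ratio. Hk1, the broadly expressed form, stood at 13.1 and 20.3 CPM and had an adjusted log2 ratio of 0.27 (0.12 to 0.42). Hk1 made up 12.6% (11.7 to 13.7) of the UMIs of the pair in control and 52.1% (50.1 to 54.1) in CX-5461 ES-like cells. The pair together went from 104 to 38.9 CPM.

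Hk2 was also lower in feeders, by less. It stood at 48.4 and 33.5 CPM from 214 and 131 UMIs, with an adjusted log2 ratio of -0.66 (-0.99 to -0.34), and by library totals that ratio no longer passed 1.5-fold at -0.53. Hk2 was 1.87-fold higher in ES-like than in fibroblast-like cells of the control library and 1.80-fold higher in fibroblast-like than in ES-like cells of the CX-5461 library, so the order of the classes turned. After every cell was thinned to 5000 UMIs, 34.9% of control and 8.42% of CX-5461 ES-like cells held a UMI of Hk2.

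The phosphofructokinases catalyse the committed step of glycolysis, and their shares also differed between the libraries. In ES-like cells Pfkl, the liver type, stood at 8.77 and 21.1 CPM, 2.40-fold higher (2.13 to 2.70) after CX-5461. Pfkm, the muscle type, stood at 3.42 and 11.2 CPM from 141 and 676 UMIs, 3.27-fold higher (2.72 to 3.95). Pfkp, the platelet type, stood at 24.3 and 17.4 CPM, with an adjusted log2 ratio of -0.81 (-0.93 to -0.68), and by library totals its ratio of -0.48 no longer passed 1.5-fold. Pfkp supplied 66.6% (64.2 to 69.0) of the UMIs of the 3 genes in control and 35.0% (33.3 to 36.8) in CX-5461 ES-like cells. In feeders Pfkl stood at 9.04 and 40.1 CPM from 40 and 157 UMIs, a 4.44-fold ratio (3.12 to 6.44) that exceeded those of 99.6% of genes of similar level. Pfkp stood there at 12.2 and 19.9 and Pfkm, below the minimum, at 3.39 and 8.94 CPM.

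**Figure D3:**
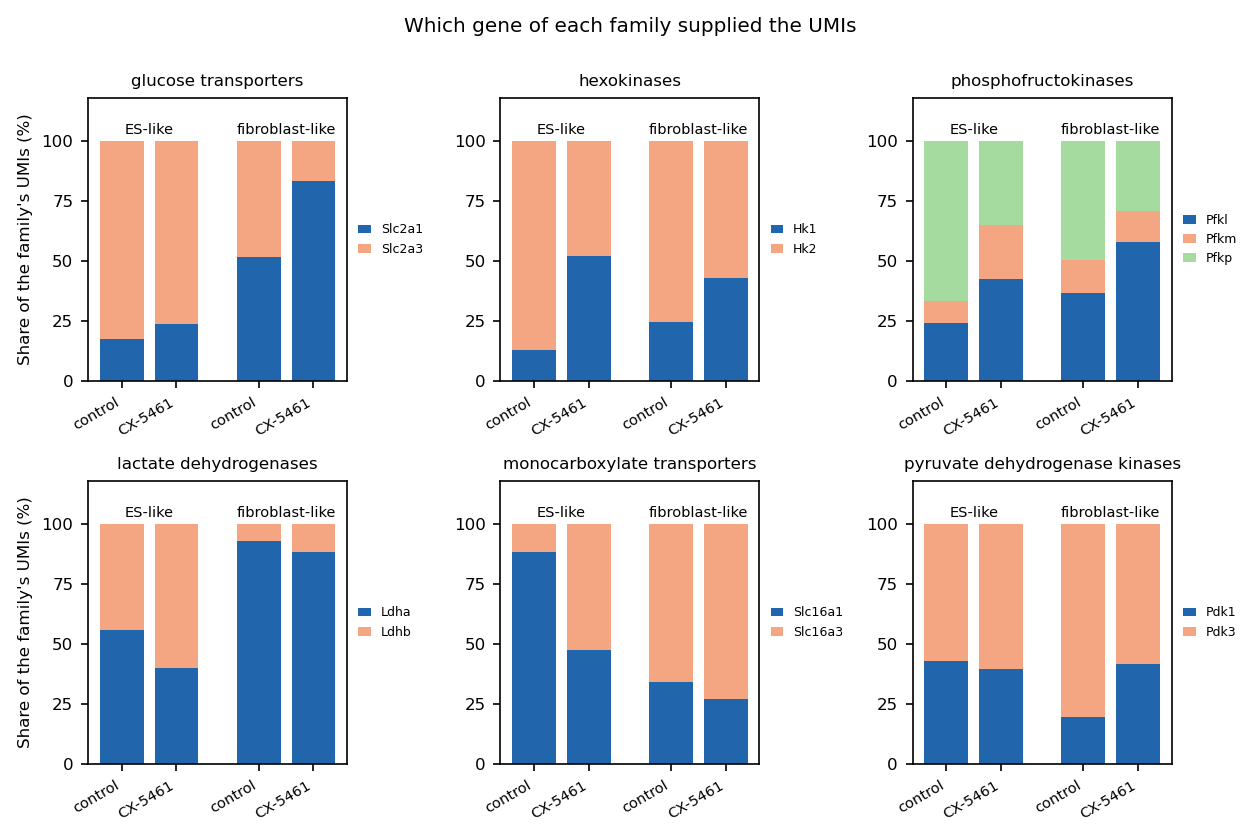
Share of the UMIs of each of 6 gene families supplied by each paralog, in percent, in ES-like and fibroblast-like cells of each library. The hexokinase bars go from 12.6% to 52.1% Hk1 in ES-like cells, Pfkp falls from 66.6% to 35.0% of the phosphofructokinase UMIs, and Slc16a3 goes from 11.5% to 52.7% of the transporter UMIs.

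Of the other upper enzymes none passed 1.5-fold in ES-like cells, and Gpi1 and Tpi1 did in feeders. Gpi1, glucose 6-phosphate isomerase, stood at 167 and 195 CPM in ES-like cells and at 203 and 356 in feeders, where its adjusted log2 ratio was 0.61 (0.49 to 0.73). Tpi1, triose phosphate isomerase, stood at 129 and 145 in ES-like cells and at 236 and 403 in feeders, with an adjusted log2 ratio of 0.60 (0.49 to 0.72) there. Both feeder values lay close to the 1.5-fold limit and fell inside it when the 100 nearest genes were used or cells were thinned, and that of Tpi1 also in feeders with at most 2 Pou5f1 UMIs. Aldoa, the main aldolase, stood at 599 and 623 in ES-like cells (adjusted log2 ratio 0.05) and at 783 and 987 in feeders (0.25). Aldoc, its brain paralog, supplied at most 0.562% of the aldolase UMIs in any class, from 96 and 213 UMIs in ES-like and 5 and 8 in fibroblast-like cells.

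Lower glycolysis holds the most abundant genes of the set. Gapdh, glyceraldehyde 3-phosphate dehydrogenase, stood at 3517 and 2364 CPM in ES-like cells, 1.49-fold lower (1.477 to 1.499) after CX-5461, and at 3149 and 3196 in feeders. Its adjusted log2 ratios were -0.51 in ES-like and -0.06 in fibroblast-like cells, and with TMM factors the ES-like one was -0.97. Gapdh alone gave 47.8% of the UMIs of the set in control and 33.8% in CX-5461 ES-like cells. The summed share of the 32 genes, 0.736% and 0.699% of UMIs, was therefore lower after CX-5461 (log2 ratio -0.07, -0.08 to -0.07), whereas without Gapdh it was higher (0.384% and 0.463%, log2 ratio 0.27). In feeders the sum was higher with it (0.791% and 1.01%, log2 ratio 0.35) and without it (log2 ratio 0.54). Part of these higher sums lay in Eno1 in both classes, and in ES-like cells also in Ldhb, at 235 and 598 CPM. In feeders Ldhb stood at only 59.2 and 157, and Ldha at 811 and 1192. Eno1 stood at 315 and 541 in ES-like cells and at 392 and 936 in feeders, and its counts are uncertain, as described below.

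Pkm, pyruvate kinase of muscle and most other tissues, was lower in ES-like cells, at 513 and 324 CPM, with an adjusted log2 ratio of -0.73 (-0.76 to -0.70). It stood at 764 and 921 in feeders, with an adjusted log2 ratio of 0.17 (0.10 to 0.23). Counts per gene do not separate its M1 and M2 splice forms. Pgk1, phosphoglycerate kinase, stood at 187 and 236 in ES-like cells and at 384 and 617 in feeders, with adjusted log2 ratios of 0.22 and 0.54. Pgam1, phosphoglycerate mutase, stood at 438 and 450.0 in ES-like cells and at 294 and 443 in feeders, with adjusted log2 ratios of -0.01 and 0.43. Bpgm, which makes 2,3-bisphosphoglycerate, stood at 10.9 and 12.8 in ES-like cells and at 10.2 and 16.6 in feeders.

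Enolase needs care because Eno1 has a near-identical copy. Eno1 itself, the ubiquitous enolase, stood at 315 and 541 CPM in ES-like cells (adjusted log2 ratio 0.72, 0.69 to 0.74) and at 392 and 936 in feeders (1.11, 1.03 to 1.19). Eno1b, a separate gene whose annotated transcript matched the last 500 bases of Eno1 with 100% identity, stood at 661 and 405 in ES-like cells and at 876 and 782 in feeders. Eno1 held 32.3% of the UMIs of these 2 genes in control and 57.2% in CX-5461 ES-like cells, and 30.9% and 54.5% in feeders, so the split differed between libraries by about the same amount in both classes. Counted with its copies, Eno1 had an adjusted log2 ratio of 0.01 in ES-like cells, with an interval that held 0, and 0.34 (0.29 to 0.39) in feeders, neither past 1.5-fold. Reads of Eno1 and Eno1b could not be told apart here, and the calls of Eno1 alone are uncertain. Eno2, the neuronal enolase, had 7 and 16 UMIs in ES-like and 4 and 17 in fibroblast-like cells. Eno3, the muscle enolase, had 142 and 166 UMIs in ES-like cells, with an adjusted log2 ratio of -0.87 (-1.21 to -0.54) that was -0.33 by library totals, and 21 and 9 UMIs in feeders.

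The same check found 68 genes with transcripts matching the 3′ end of Gapdh at 97% identity or more over at least 100 bases. Gapdh held 73.7% of the joint UMIs in control and 64.8% in CX-5461 ES-like cells, and 74.2% and 65.6% in feeders. Jointly they stood at 4771 and 3650 CPM in ES-like cells (adjusted log2 ratio -0.32) and at 4245 and 4870 in feeders (0.11). Of the other genes, 5 had such copies, Gpi1, Tpi1, Pkm, Ldha and Ldhb, and the copies of any one of them held at most 8 UMIs in a class and library.

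Lactate formation and export held the gene with the highest adjusted ratio in ES-like cells, Slc16a3. Ldhb, the heart subunit of lactate dehydrogenase, stood at 235 and 598 CPM in ES-like cells from 9677 and 36164 UMIs, 2.55-fold higher (2.49 to 2.61) after CX-5461. In feeders Ldhb stood at 59.2 and 157, a 2.66-fold ratio (2.30 to 3.08). The adjusted log2 ratios of Ldhb in the 2 classes, 1.26 and 1.21, differed by less than their counting intervals. Ldha, the muscle subunit, stood at 298 and 402 in ES-like cells and at 811 and 1192 in feeders, with adjusted log2 ratios of 0.34 (0.31 to 0.37) and 0.47 (0.40 to 0.53), both within 1.5-fold, and the ES-like value was 0.03 with TMM factors. Ldhb went from 44.1% (43.4 to 44.7) to 59.8% (59.4 to 60.2) of the UMIs of the pair in ES-like cells and from 6.80% to 11.7% in feeders.

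Slc16a3 encodes MCT4, the exporter of lactate from strongly glycolytic cells, and Slc16a1 encodes MCT1, the broadly expressed carrier. In ES-like cells Slc16a3 stood at 1.58 and 11.3 CPM from 65 and 685 UMIs, 7.18-fold higher (5.56 to 9.41), with an adjusted log2 ratio of 2.31 (1.94 to 2.70). In feeders Slc16a3 stood at 15.6 and 62.3 from 69 and 244 UMIs, 4.00-fold higher (3.05 to 5.30). Slc16a1 went the other way in ES-like cells, at 12.1 and 10.2 CPM, and its adjusted log2 ratio of -0.58 (-0.75 to -0.40) lay just inside 1.5-fold. In feeders Slc16a1 was higher, at 8.14 and 23.0 from 36 and 90 UMIs, with an adjusted log2 ratio of 1.30 (0.72 to 1.90). Slc16a3 made up 11.5% (9.01 to 14.5) of the UMIs of the pair in control and 52.7% (49.9 to 55.4) in CX-5461 ES-like cells.

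Slc16a3 is a feeder-rich gene, 9.90-fold higher in fibroblast-like than in ES-like cells of the control, so RNA from feeders in ES droplets bears on it. Its level in ES-like cells was 10.1% of the feeder level in the control and 18.2% after CX-5461, above the 1.27% and 1.80% of the fibroblast markers. In ES-like cells with no UMI of any fibroblast marker, 540 control and 600 CX-5461 cells, it stood at 1.84 (1.03 to 3.03) and 11.1 (8.98 to 13.7) CPM, from 15 and 92 UMIs, and the intervals did not overlap. The part of feeder RNA in the difference was not tested. After thinning to 5000 UMIs, 0.858% of control and 5.14% of CX-5461 ES-like cells held a UMI of Slc16a3, against 7.29% and 26.9% of feeders.

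Of the regulators, Pdk1 and Pdk3 are kinases that switch off pyruvate dehydrogenase and so keep pyruvate from mitochondria. Pdk1 stood at 19.2 and 16.03 CPM in ES-like cells, with an adjusted log2 ratio of -0.66 (-0.79 to -0.52), and by library totals at -0.26 it no longer passed 1.5-fold. In feeders Pdk1 had 26 and 67 UMIs, too few to be adjusted, a 2.91-fold ratio (1.83 to 4.77). Pdk3 stood at 25.7 and 24.3 in ES-like and at 24.0 and 23.8 in fibroblast-like cells. Pfkfb3 and Pfkfb4, which set the level of fructose 2,6-bisphosphate, the activator of phosphofructokinase, were scarce. Pfkfb3 had 32 and 64 UMIs in ES-like and 25 and 47 in fibroblast-like cells, and Pfkfb4 had 71 and 202 in the former and 11 and 9 in the latter.

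Tigar, which lowers fructose 2,6-bisphosphate and is a known p53 target, stood at 53.6 and 59.2 CPM in ES-like cells, with an adjusted log2 ratio of -0.07 (-0.15 to 0.01). Beside it the p53 targets Cdkn1a, a cell cycle inhibitor, and Mdm2, the p53 ubiquitin ligase, stood at 127 and 535 and at 32.2 and 130 CPM, with adjusted log2 ratios of 1.95 and 1.81. Tigar was therefore within 1.5-fold in cells where both of these were past it. In feeders Tigar had 34 and 24 UMIs.

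Of the 4 pentose phosphate genes, 1 was higher and 1 lower by 1.5-fold in ES-like cells. G6pdx, the first enzyme of the oxidative arm, stood at 17.6 and 27.6 CPM in ES-like cells, with an adjusted log2 ratio of 0.34 (0.21 to 0.47). Pgd, the next dehydrogenase, was lower there, at 88.6 and 57.4, with an adjusted log2 ratio of -0.85 (-0.92 to -0.79). Taldo1, transaldolase, was higher, at 203 and 344 and 0.63 (0.60 to 0.67), and with TMM factors its ratio of 0.36 no longer passed 1.5-fold. Tkt, transketolase, stood at 155 and 190.0, with an adjusted log2 ratio of 0.18 (0.14 to 0.23). In feeders none of these 4 genes passed 1.5-fold, at adjusted log2 ratios of 0.09 for G6pdx, -0.54 for Pgd, -0.36 for Taldo1 and -0.21 for Tkt.

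**Figure D4:**
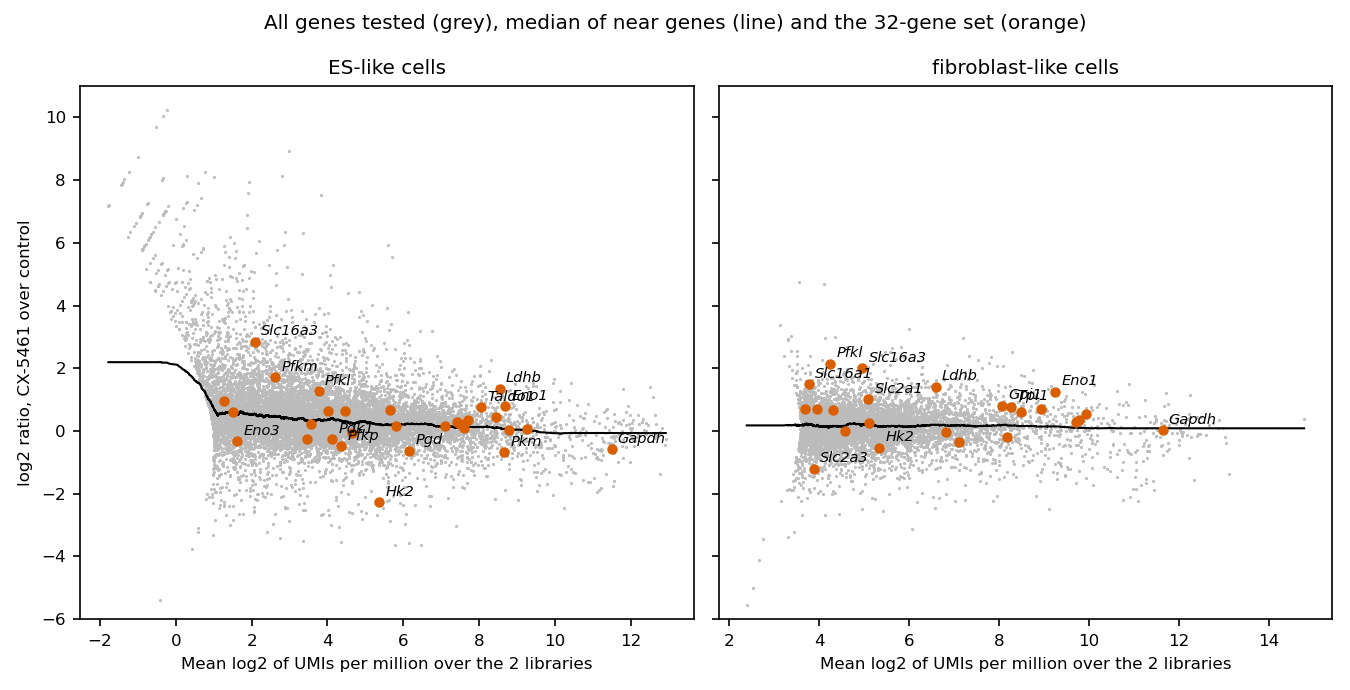
Log2 ratio of CX-5461 over control against mean log2 level for all genes tested (grey, 11568 in ES-like and 6021 in fibroblast-like cells), with the median of the 500 nearest genes (line) and the genes of the set (orange). Names mark Gapdh and the genes past 1.5-fold, of which Hk2 lies near the lower edge of the ES-like cloud and Slc16a3 and Pfkl near the upper edge of the fibroblast-like one.

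Of the 24 genes that passed the minimum in both classes, 14 had an adjusted ratio in feeders above that in ES-like cells beyond both counting intervals, 3 had it below and 7 overlapped. For 10 genes both intervals lay above 0, for 3 both lay below, and for 5 they lay on opposite sides. Those 5 were Pfkp, Pkm and Slc16a1, higher in feeders and lower in ES-like cells, and Taldo1 and Tkt, the reverse. The classes came from the same 2 libraries, so they do not check each other. In both libraries 12 of the 32 genes were higher in fibroblast-like than in ES-like cells and 5 were higher in ES-like cells, Slc2a1, Slc2a3, Ldhb, Tigar and Tkt. Tigar stood 6.98-fold higher in ES-like cells of the control. None of these counts between classes was made over all genes, so they are no result about the set.

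Among the clusters of ES-like cells, the order of the libraries held for the main genes. Hk2 stood at 85.8 and 99.1 CPM in control clusters 0 and 3 and at 20.5 and 11.7 in CX-5461 clusters 6 and 7. Ldhb stood at 241 and 223 in the former and at 554 and 768 in the latter. For other genes the CX-5461 clusters 6 and 7 stood apart from each other. Slc2a3 stood at 228 in cluster 6 and 90.6 in cluster 7, Aldoa at 680.1 and 396, Tpi1 at 160.2 and 84.0, Ldha at 425 and 308, and Slc16a3 at 12.6 and 4.74 CPM. Control clusters lay between the 2 CX-5461 clusters for Slc2a3, Aldoa and Tpi1, at 187 and 191, at 608 and 583, and at 127 and 132. Clusters were made from these libraries' own expression values, so these levels describe the clusters and test nothing.

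**Figure D5:**
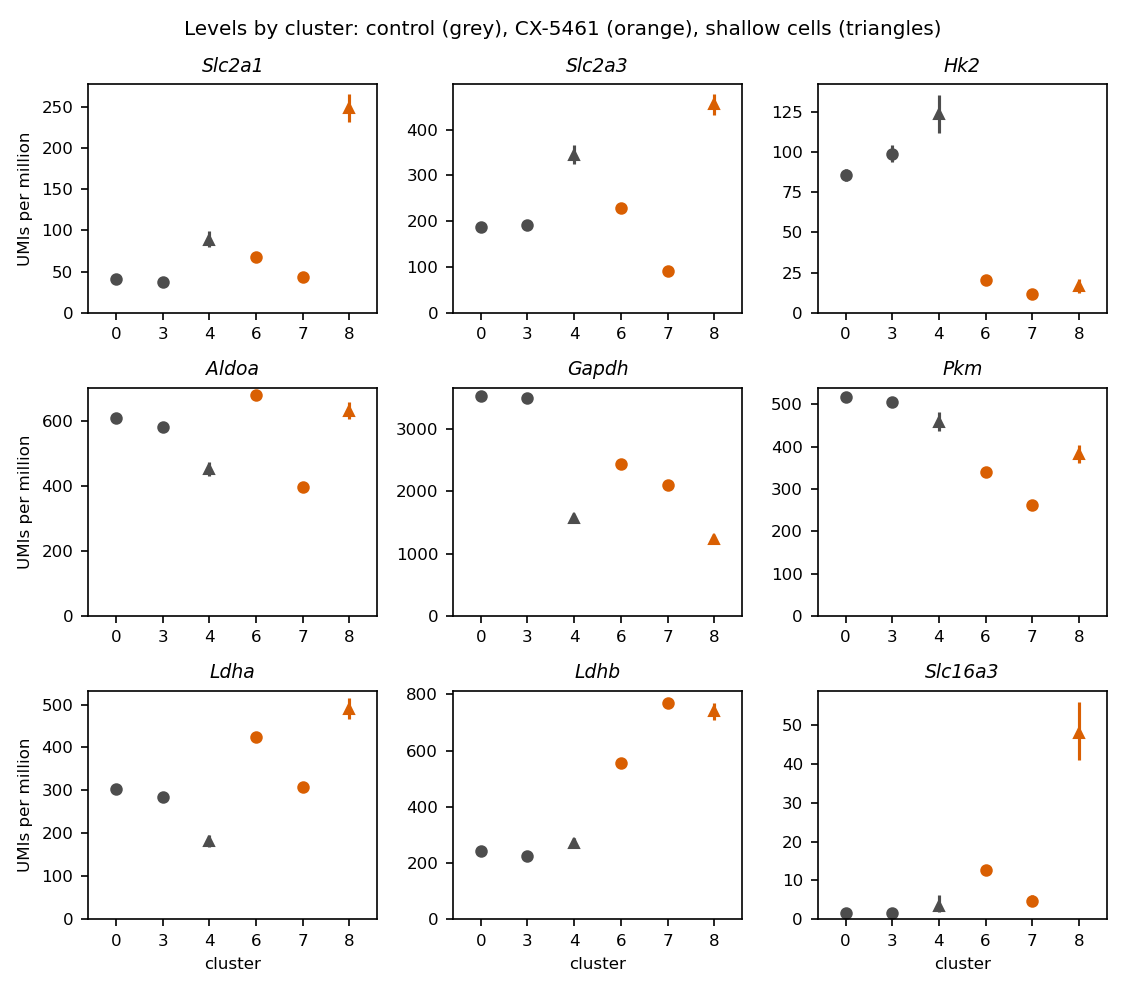
Level of 9 genes in CPM, with exact 95% Poisson intervals, in ES-like clusters 0 and 3 of the control (grey circles), 6 and 7 of CX-5461 (orange circles), and 2 clusters of shallow cells (triangles), the unnamed control cluster 4 and the CX-5461 cluster 8. Hk2 was between 11.7 and 20.5 in all 3 CX-5461 clusters and between 85.8 and 124 in all 3 control clusters.

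Genes around the pathway were read from lists chosen by function, and at most 4 genes of each are named, those with the widest adjusted ratio in ES-like cells. Of 48 other genes of glycolysis, gluconeogenesis and sugar handling found, 27 passed the minimum in ES-like cells, and 8 were higher and 3 lower by 1.5-fold. These are 29.6% and 11.1%, against 20.0% and 16.4% of all genes. The widest were Gapdhs, the sperm form of Gapdh, with 2 and 334 UMIs (114-fold, 31.3 to 944), and Fbp1 and Fbp2, the fructose bisphosphatases that run the phosphofructokinase step backwards. Fbp1 stood at 0.970 and 15.3 CPM, 15.8-fold higher (11.5 to 22.3), and Fbp2 at 2.16 and 31.3, 14.5-fold higher (11.7 to 18.1). Pgam2, the muscle mutase, stood at 1.02 and 8.81. In feeders these 4 genes had at most 5 UMIs in a library. Of the 13 genes of that list that passed the minimum there, 4 were higher and 4 lower. That is 30.8% each, against 14.0% and 15.3% of all genes.

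Of 32 genes of pyruvate oxidation and the citric acid cycle, all passed in ES-like cells, and 2 were higher and 1 lower. These are 6.25% and 3.1%, below the 20.0% and 16.4% of all genes. Pcx, pyruvate carboxylase, stood at 1.82 and 10.9 CPM (adjusted log2 ratio 2.11), Mpc1, a subunit of the mitochondrial pyruvate carrier, at 121 and 200.3 (0.60), and Got1, the cytosolic aspartate aminotransferase, at 72.6 and 52.0 (-0.69). Me1, malic enzyme, was within 1.5-fold at -0.56. In feeders 29 of the 32 passed, with 1 higher, Mpc1 at 0.83, and 4 lower. These are 3.45% and 13.8%, against 14.0% and 15.3% of all genes.

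Of 32 further HIF-responsive genes found, 25 passed in ES-like cells, with 11 higher and 2 lower, and 17 passed in feeders, with 9 higher and none lower. These are 44.0% and 52.9% higher, beside 20.0% and 14.0% of all genes, and 8.0% and 0% lower, beside 16.4% and 15.3%. The list was chosen with earlier results of these data known. Ndufa4l2, a mitochondrial protein induced in hypoxia, stood at 0.218 and 12.3 CPM in ES-like and at 2.26 and 60.8 in fibroblast-like cells, with adjusted log2 ratios of 4.51 and 4.57. Pgf, placental growth factor, and Ddit4, an inhibitor of mTOR signalling, stood at 0.436 and 16.3 and at 5.24 and 47.1 in ES-like cells, whereas Ddit4 stood at 47.9 and 45.7 in feeders. Plin2, a lipid droplet protein, stood at 15.5 and 56.4 in ES-like cells and at 66.0 and 110.4 in feeders. The summed level of this list had a log2 ratio of 0.10 in ES-like cells and 0.78 in feeders.

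Of 12 serine and one-carbon genes 10 passed in ES-like cells, with 2 higher and 3 lower. The share higher was no larger than the 20.0% of all genes. The share lower was above the 16.4% of all genes, but rested on only 3 genes. Aldh1l1, which oxidises formyl-tetrahydrofolate, was higher, at 3.47 and 83.4 CPM. Psat1 and Mthfd2, of serine synthesis and mitochondrial folate metabolism, were lower, at 109.0 and 39.7 and at 75.3 and 29.3, and Slc1a5, a glutamine transporter, was lower at 14.5 and 10.6. Of 20 genes that regulate glycolysis 18 passed, with 2 higher and 3 lower, 11.1% and 16.7% against 20.0% and 16.4% of all genes. Lin28a, an RNA-binding protein of pluripotent cells, stood at 21.9 and 2.05 CPM and Myc at 3.93 and 1.55, with adjusted log2 ratios of -3.89 and -1.92. Mlxipl, the glucose-responsive factor ChREBP, stood at 0.945 and 7.70 and Prkaa2, a catalytic subunit of AMPK, at 1.82 and 5.12, with adjusted log2 ratios of 2.49 and 0.97.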

How the data were processed

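ES cells on feeders, control and CX-5461, were profiled by 10x 3′ single-cell RNA-seq. The authors aligned reads to mm10 with HISAT2 in place of Bowtie in a published pipeline, counted UMIs per gene and deposited raw counts, 1 table of counts per condition, and their own filtering used Seurat 2.3.4. Of 54146 gene identifiers 54079 were matched to GENCODE vM21 names. Here cells were clustered with scanpy 1.11.5 (2000 variable genes, 16 components, 15 neighbours, resolution 0.5) and classes named from markers. Scrublet called 1 control and 4 CX-5461 cells, too few to have worked, so no doublet was removed. UMIs were summed per class and library, which held 41256336 and 60519899 UMIs (control, CX-5461) in ES-like and 4424443 and 3914745 in fibroblast-like cells, so that depth set wide intervals for scarce feeder genes. Ratios had exact conditional binomial intervals, levels exact Poisson and shares Clopper-Pearson intervals. The computation was tested on simulated data. Copies were found with blastn 2.17.0 over the last 500 bases of transcripts. TMM factors came from edgeR 4.0.16. Promoters were RefSeq's. Every gene of the set is named with its level, genes past 1.5-fold and paralogs of 1 reaction get UMIs or intervals, and at most 4 genes of each other list are named, those with the widest adjusted ratio in ES-like cells. The genes and lists were chosen with earlier results of these data known. The alternatives tried are in the closing section.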

Additional observations from a re-analysis of the deposited data

Results flagged for a closer look

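For 5 genes the level-adjusted log2 ratio had an interval above 0 in one cell class and below 0 in the other, so the direction of the difference between libraries turned with the class. Written as the feeder value minus the ES-like value, the gap was 1.34 for Pfkp, 0.89 for Pkm and 1.87 for Slc16a1, which were higher in feeders, and -0.998 for Taldo1 and -0.39 for Tkt, which were lower there. With 1 library per condition these differences were not tested, and such genes were not counted over all genes.

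Slc16a3 had a signal in cells most of which lay outside the comparison. The 508 CX-5461 cells of cluster 8 had a median of 5947 UMIs and 15.7% of UMIs on mt- genes, and only 39 of them had entered the comparison. Over all 508 Slc16a3 stood at 48.1 CPM, against 3.49 in the 1169 shallow control cells of cluster 4. Those had a median of 2388 UMIs and 11.9% on mt- genes. Depth and mitochondrial share moved with this value, and their part in it was not tested.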

How the results depend on the processing

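Of 98 recomputed summary values, 74 stayed close to the reported one and 24 moved, and of 350 values of single genes 259 stayed close and 91 moved. The reference mattered most. By library totals the ES-like median became 0.23, with 11 genes higher and 3 lower, and the feeder median 0.64, with 13 higher and 1 lower; TMM factors gave an ES-like median of -0.17. The ES-like median, 0.06 with an interval that held 0, thus changed sign with TMM factors, in marker-free cells and by the mean of single cells. At a log2 threshold of 0.32 in place of 0.58, 10 ES-like genes were higher and 9 lower (31.0% and 28.7% of all genes), and 14 were higher and 4 lower in feeders (26.4% and 28.1%). At 2-fold 3 were higher and 1 lower in ES-like cells (11.7% and 6.41% of all genes), and 5 higher and 1 lower in feeders (4.82% and 6.31%). Thinning cells to 5000 UMIs left 3 higher and 0 lower in feeders, where only 13 genes passed the minimum (14.8% and 17.4% of all genes). With no minimum 13 of 32 were higher there (20.9% of all genes). ES-like cells with no fibroblast marker UMI (marker-free) gave a median of -0.11, and the mean of single cells an ES-like median of -0.019. In feeders with at most 2 Pou5f1 UMIs 1 of 23 genes was lower (15.2% of all genes). Slc2a3, with 62 and 27 UMIs there, was below the minimum. The log2 ratio of the ES-like summed share was -0.10 by the mean of single cells, by thinning and with copies counted, and -0.20 in marker-free cells. Where no cause is named, the cause was not tested. Hk2, Ldhb, Pfkl, Pfkm, Pgd, Pkm and Slc16a3 stayed past 1.5-fold in ES-like cells under every alternative that gave them a value. Pdk1 did not by library totals, thinning or marker-free cells. Counting copies and keeping the macrophage cells were chosen after seeing the data. No paired analysis was possible because each condition was 1 library. Depth limited the feeders, where 8 of the 32 genes had too few UMIs.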

Other observations

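Of CX-5461 cells that passed the depth limits, 72 held at least 10 UMIs of genes of the 2-cell-like (2C) state, which resembles the 2-cell embryo, and 3504 held none. The 32 genes summed to 6055 CPM in the former and 7016 in the latter, a log2 ratio of -0.21 (-0.25 to -0.18). Hk2 stood at 6.91 and 19.2 CPM, from only 7 UMIs in the 2C cells, and Slc2a3 at 128 and 203, a log2 ratio of -0.66 (-0.93 to -0.41). In the control library, with only 10 such cells, Slc2a3 went the other way, at 314 CPM in them and 187 in cells with none, a log2 ratio of 0.75 (0.29 to 1.17). The sum of the 32 genes was lower in the 2C cells of the control library too, at -0.25 (-0.35 to -0.16). In the CX-5461 library Pgam1 and Pgd were also lower in 2C cells, with log2 ratios of -0.39 and -0.63. Ldhb and Slc16a3 stood there at -0.10 and -0.01 with intervals that held 0. In the control library the intervals of Pgam1 and Pgd held 0. Each ratio compares cells of 1 library and describes it alone.

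The Fano factor, the variance over the mean, of single genes in ES-like cells differed between the libraries in both directions. After thinning to 5000 UMIs per cell it was 1.35 in control and 1.96 in CX-5461 cells for Ldha, and 1.254 and 1.72 for Aldoa. It was 2.60 and 2.00 for Gapdh and 1.06 and 1.04 for Hk2. This factor can move with the mean, so it does not give the spread between cells alone. The mean UMIs per thinned cell were 1.46 and 1.95 for Ldha and 3.06 and 3.00 for Aldoa. They were 17.3 and 11.5 for Gapdh and 0.440 and 0.0898 for Hk2. These genes were chosen after their values were seen.

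In the shallow CX-5461 cells of cluster 8, Slc2a1 stood at 249 and Slc2a3 at 455 CPM, against 89.0 and 345 in the shallow control cells of cluster 4, while Gapdh stood at 1233 and 1565.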
